A study of Mus musculus with 3 samples.

Results

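The genes described are 9 leukocyte adhesion molecules and integrins, among 34797 gene names on a mouse expression array. They were chosen by name, as every probe that is not a control and carries the symbol Selp, Sele, Icam1, Vcam1, Madcam1, Itga4, Itgal, Itgb2 or Itgb7. All 9 names were found, with 14 probes of 60 bases each. Of these, 13 probes, covering 8 genes, were well above background on all 3 arrays. The probe of Sele was not well above background on any array.

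RNA came from whole spleens of C57BL/6J mice that carried islet grafts. According to the study's methods these were male recipients made diabetic with streptozotocin, which kills beta cells, and the islets were syngeneic. Each recipient had 25 islets injected into the spleen and another 100 under the capsule of a kidney; the deposited characteristics name the capsular graft for the day 139 sample only, while the protocol text names it for every sample. Sample 1 was taken immediately after transplantation (day 0), Sample 2 on day 2 and Sample 3 on day 139, and the recipients of Sample 3 had lost the grafted kidney by nephrectomy on day 100. Each condition is 1 array, the number of mice behind it is not given in the sources used here, and no naive or ungrafted spleen was measured. Differences between samples therefore have no replicate check and no p-value. By the study's methods the islets were given 3 days after the streptozotocin injection, to mice that were then hyperglycemic. Days 0 and 2 therefore also lie soon after the injection, and day 139 long after it. Blood glucose of the sampled mice at harvest is not given. The time since transplantation and since streptozotocin, age, glucose state, nephrectomy and the mouse itself cannot be told apart.

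Leukocytes leave the blood in steps. Selectins on platelets and activated endothelium catch passing leukocytes by their sugar-bearing ligands and let them roll, after which integrins on the leukocyte bind immunoglobulin-family ligands on the vessel wall and hold the cell firmly. Each integrin is a pair of an alpha and a beta chain: the Itgal chain pairs with Itgb2 and binds the Icam1 product, and the Itga4 chain pairs with Itgb7 to bind the Madcam1 product or with Itgb1 to bind the Vcam1 product. In the spleen, Madcam1 is known from cells that line the marginal sinus, and Vcam1 from red pulp macrophages and stromal cells as well as vessels.

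The probes behind the results are shown here because several genes were read at more than 1 place and their probes did not give the same value. For each, the middle 30 bases (bases 16 to 45 of the 60) are printed 5′ to 3′ as the array annotation gives them, with positions on the mm9 build.
Selp, chr1:166079660-166079719, plus strand: tctcctgggtcttccatgtttcatatcaat
Vcam1, chr3:115813216-115813275, minus strand: aaatggtaaagaggtcactgggttgacttt
Vcam1, chr3:115828953-115829012, minus strand: agtaacctttactcccgtcattgaggatat
Madcam1, chr10:79131212-79131271, plus strand: tgacttctgggcttttctgcctgctggccc
Madcam1, chr10:79129132-79129191, plus strand: cctcatcaagtactgctgaggcagtctcca
Itgal, chr7:134477160-134477219, plus strand: ctctgaccagcttcagtcacatgccaccgt
Itgal, chr7:134477064-134477123, plus strand: agatatgggctgtctagagcccctccggga
Itgal, chr7:134474711-134474767, plus strand: cttttattaacaatgttcctattaggattg

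The single probes of the remaining genes lie at chr1:165987726-165987785 (Sele, plus strand), chr9:20832290-20832349 (Icam1, plus), chr10:77027978-77028037 (Itgb2, plus) and chr15:102046450-102046509 (Itgb7, minus). Itga4 was read by a probe at chr2:79173193-79173252 and by one placed over chr2:79153985-79155115. The latter covers 1131 genome positions with 60 bases. Whether a probe lies in a coding exon or an untranslated region was not analysed here, since no mm9 annotation was used.

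A signal below is the background-subtracted intensity of a probe after quantile normalization over the 3 arrays, in arbitrary units, and a ratio is the signal of the later sample over that of the earlier one. Brightness depends on the probe as well as on the transcript, so no gene's level is set against another's. The criteria of the study were used, a ratio of at least 1.5 or at most 0.66, alone and together with a Z-score of at least 2 or at most -2. The Z-score here is a log2 ratio divided by the spread (SD) of that ratio among the 1000 detected probes closest in mean signal. It sets a probe among probes of like brightness and not among replicate mice. Where a gene had several detected probes, the brightest stood for it. The scanner software's own error, carried to a log2 ratio, is given as the only error available for a single array.

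Selp, the selectin of platelet and endothelial granules, was the gene with the widest difference among the 9. Its signal was 172 on day 0, 162 on day 2 and 48.2 on day 139. Days 0 and 2 lay close together and day 139 stood alone below them. The day 139 signal was 0.280 of that on day 0 (log2 ratio -1.84, scanner error 0.24, Z-score -2.86) and 0.297 of that on day 2 (log2 ratio -1.75, scanner error 0.24, Z-score -2.77). Between days 0 and 2 the log2 ratio was -0.09, smaller than its scanner error of 0.21. In RNA from whole spleen, fewer cells that carry a transcript and less of it in each cell cannot be told apart.

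The Selp probe was printed 10 times on each array, which shows the spread within an array before normalization. On day 0 the 10 spots read from 168 to 202, with a median of 180 and a mean of 182.4 ± 13.1 (SD, 10 spots). On day 2 they read from 143 to 185, with a median of 172 and a mean of 169.8 ± 13.2. The spots of days 0 and 2 overlapped. On day 139 the spots read from 33.9 to 51.5, with a median of 41.6 and a mean of 42.6 ± 6.57. The lowest spot of day 0 was 3.26 times the highest spot of day 139, and the lowest of day 2 was 2.78 times that spot. The day 139 signal was still above the lowest signal counted as well above background on that array, which was 18.2 after normalization. The spots share 1 labelled RNA and say nothing of the spread between mice.

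**Figure D1:**
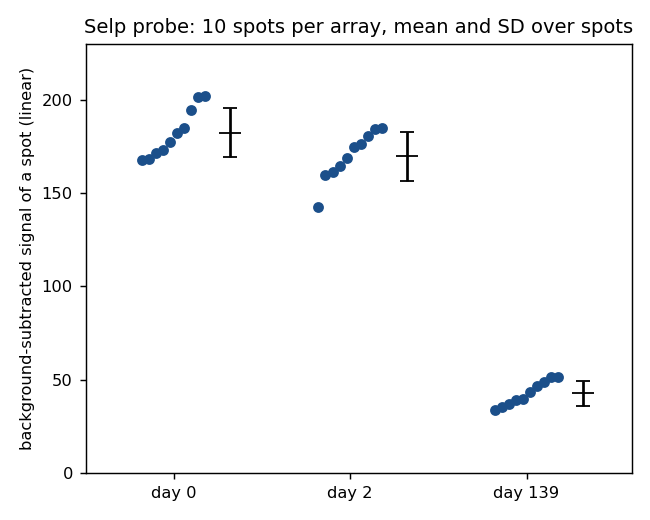
Background-subtracted intensity (arbitrary units, linear axis, before normalization) of the 10 spots of the Selp probe on each of the 3 arrays, with the mean and SD over spots; within an array the spots are set side by side in order of signal only. The day 139 spots, from 33.9 to 51.5, all lie below every spot of days 0 and 2, which overlap.

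Sele, the selectin that endothelium makes after cytokine activation, read 4.52 on day 0, 3.24 on day 2 and 3.28 on day 139. The lowest signals counted as well above background on the 3 arrays were 12.9, 14.0 and 18.2, so the Sele readings are background and no ratio was formed. A low level of Sele transcript was not detectable with this probe.

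Icam1, the ligand of the Itgal and Itgb2 pair, was lowest on day 2. Its signal was 240 on day 0, 155 on day 2 and 186 on day 139. The day 2 signal was 0.647 of that on day 0 (log2 ratio -0.63, scanner error 0.21), which passed the ratio limit, while its Z-score of -1.21 did not reach the limit. With a normexp background correction the ratio was 0.737 and no longer passed. The day 139 signal lay between the other two, at 0.777 of day 0 and 1.20 times day 2, with neither past a limit.

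Vcam1, the ligand of the Itga4 and Itgb1 pair, differed in pattern between its 2 probes. The brighter probe, which starts at base 3060 of the transcript, read 27025 on day 0, 31152 on day 2 and 26228 on day 139. Its ratios lay between 0.842 and 1.15, and none passed a limit. The dimmer probe, which starts at base 842, read 1728 on day 0, 1244 on day 2 and 960 on day 139. There the day 139 signal was 0.556 of that on day 0, past the ratio limit with a Z-score of -1.52. The 2 probes moved in opposite directions from day 0 to day 2, with log2 ratios of 0.21 and -0.47, and differed by 0.80 in the log2 ratio of day 139 over day 0.

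The same transcript can read differently near its start and near its end, so the gap was set beside that of other genes. For 1421 transcripts with probes at least 1000 bases apart, the log2 ratio of day 139 over day 0 at the probe nearer the start minus that at the probe nearer the end had a median of -0.14 (quartiles -0.34 and 0.10). The gap of Vcam1 was wider, at -0.80, and how many transcripts had a gap as wide was not counted. The 2 probes of Itga4, which start at bases 2292 and 9754, differed by 0.29, with the lower ratio nearer the start. That gap lies between the quartiles. Between days 0 and 2 the median over the 1421 transcripts was 0.03. The part of this shift in any one gene was not tested.

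Madcam1, which marks the cells of the marginal sinus, was highest on day 139 at both of its probes. The brighter probe read 1146 on day 0, 1080 on day 2 and 1637 on day 139. The dimmer one read 24.4, 29.0 and 56.8. Days 0 and 2 differed little beside the day 139 value at either probe. At the brighter probe day 139 was 1.43 times day 0 (log2 ratio 0.52, Z-score 0.93) and 1.52 times day 2 (log2 ratio 0.60, Z-score 0.94), and only the latter passed the ratio limit. It no longer passed with normexp, with scaling to the 75th percentile or with the stricter ratio limit, and over the alternatives the ratio to day 2 ran from 1.47 to 2.04. At the dimmer probe the ratios were 2.33 to day 0 and 1.96 to day 2, with Z-scores of 1.32 and 1.19.

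Among the integrin chains, Itgb7 and Itgal had the largest ratios of day 139 over day 0. Itgb7, the partner of Itga4 on gut-homing lymphocytes, read 2745 on day 0, 3594 on day 2 and 4515 on day 139. Each later sample was above the one before it. Day 139 was 1.65 times day 0 (log2 ratio 0.72, Z-score 1.21), past the ratio limit alone, and day 2 was 1.31 times day 0.

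Itgal, the alpha chain that pairs with Itgb2 on all main leukocyte types, was read by 3 probes. The brightest read 556 on day 0, 598 on day 2 and 852 on day 139. Day 139 was 1.53 times day 0 (log2 ratio 0.62, Z-score 1.09) and 1.43 times day 2. The probe that ends 36 bases before it read 453, 360 and 737, with ratios of 1.63 to day 0 and 2.05 to day 2. These neighbouring probes therefore both read highest on day 139.

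The Itgal probe annotated to a separate cDNA, AK154115, lies 2296 bases before its nearest neighbour and went the other way. It read 71.9 on day 0, 56.4 on day 2 and 42.8 on day 139. Day 139 was 0.596 of day 0 (log2 ratio -0.75, scanner error 0.25, Z-score -0.95). The widest gap between Itgal probes in the log2 ratio of day 139 over day 0 was 1.45, the widest of the 4 genes with several probes. What transcript the AK154115 probe reads was not tested.

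Itga4 and Itgb2 were nearly level over the 3 samples. Itga4, the alpha chain of the Madcam1 and Vcam1 receptors, read 4761 on day 0, 4920 on day 2 and 5552 on day 139 at its brighter probe, and 136, 151 and 130 at its dimmer one. The ratio of day 139 over day 0 was 1.17 at the former and 0.957 at the latter, opposite in direction and both small. Itgb2, the beta chain common to several leukocyte integrins, read 2770, 2645 and 2534, with every ratio between 0.915 and 0.958.

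**Figure D2:**
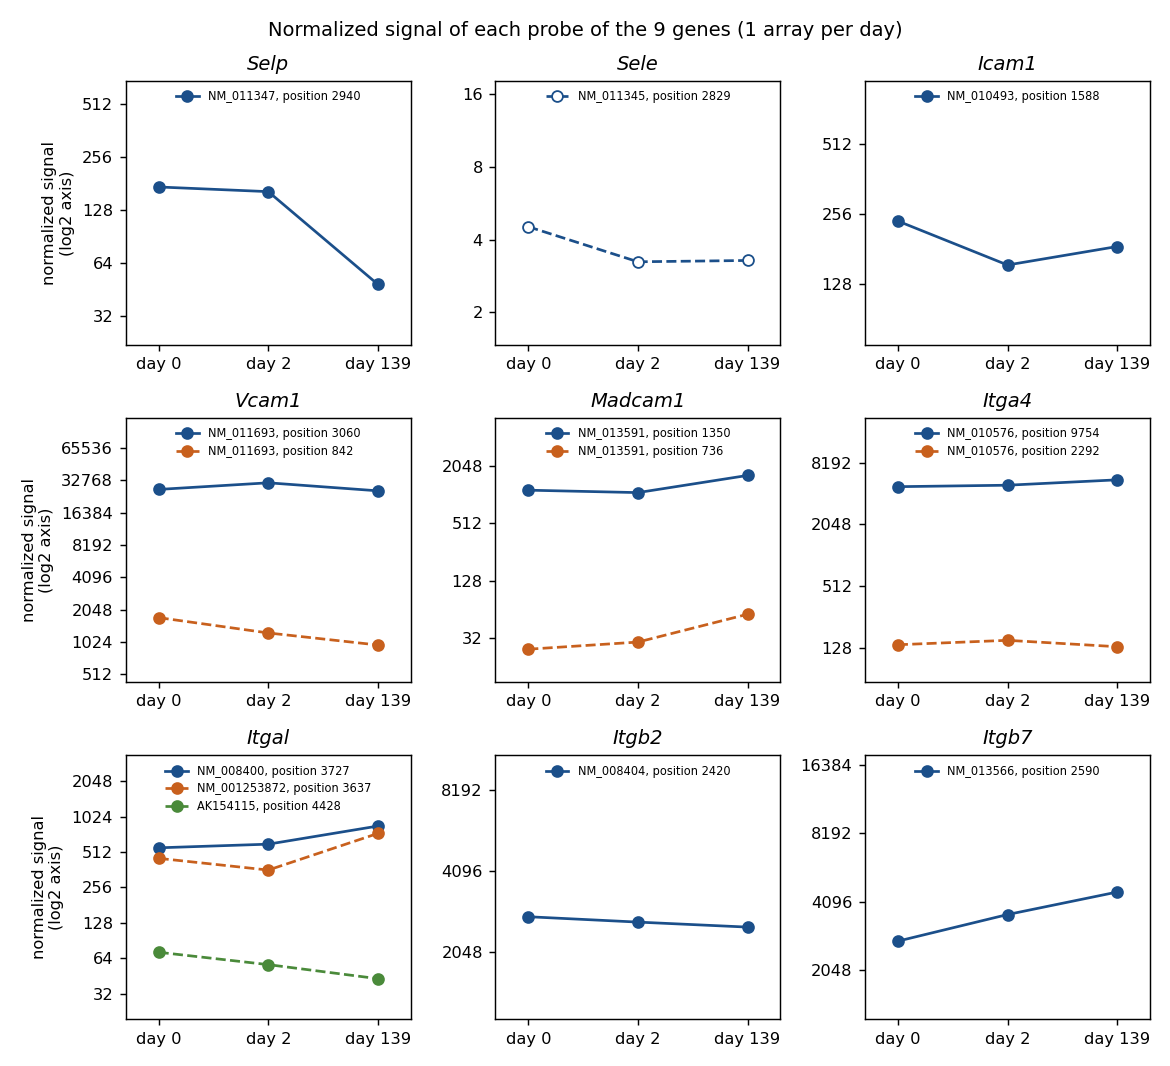
Normalized signal (log2 axis, a separate one in each panel) of every probe of the 9 genes on day 0, day 2 and day 139, 1 array each; solid lines join the brightest probe of a gene, dashed lines the others, and open symbols are not well above background. Selp is low on day 139 alone, Sele stays at background, and the Itgal probes part, with 2 of them highest and 1 lowest on day 139.

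Counted by gene, the members past the ratio limit are set beside the share of all genes. From day 0 to day 2, 0 of the 8 detected members were higher, against 9.96% of the 22851 genes with a detected probe, and 1 (Icam1) was lower, against 9.90%. For day 139 over day 0, 2 were higher (Itgal and Itgb7), against 13.6%, and 1 was lower (Selp), against 13.7%. For day 139 over day 2, 1 was higher (Madcam1), against 12.9%, and 1 was lower (Selp), against 13.5%. The comparisons share arrays, so the repeated name is not a further observation.

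With the Z-score limit added, Selp was the only member left. It was lower in day 139 over day 0, where 2.47% of genes were lower, and in day 139 over day 2, where 1.99% were. No member was higher, against 3.07% and 2.87% of genes, and none passed from day 0 to day 2, where 2.23% of genes were higher and 2.91% lower.

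Counted by probe, the additional probes brought 4 of 13 past the ratio limit upward for day 139 over day 0, against 12.8% of the 32108 detected probes, and 3 downward, against 14.7%. Those were the dimmer Madcam1 probe, the neighbouring Itgal probes and the Itgb7 probe on the higher side, and Selp, the dimmer Vcam1 probe and the AK154115 probe on the lower. For day 139 over day 2, 3 were higher, against 12.4%, and 1 was lower, against 14.4%. From day 0 to day 2, 0 were higher, against 10.1%, and 1 was lower, against 10.4%. With the Z-score limit, the Selp probe alone passed, downward in both day 139 comparisons, where 2.21% of probes were lower than on day 0 and 1.77% lower than on day 2. Upward, the shares of probes were 2.52% and 2.39%, and from day 0 to day 2 they were 1.91% upward and 2.55% downward.

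Selp kept both calls under each of the 13 processing alternatives, with a ratio to day 0 between 0.270 and 0.474 and a Z-score between -3.98 and -2.20. Most of the 13 could barely change its ratio, since Selp has a single probe, well above background on all arrays. The ratio to day 0 was 0.277 with the deposited values, 0.270 with 75th percentile scaling, 0.355 with spike-in scaling and 0.474 with normexp. Under the others Selp stayed at about 0.280. Its ratio to day 2 ran from 0.289 to 0.493. The highest of these came with the normexp correction, which adds an offset to every signal.

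The vessel-wall genes and the integrins had different medians on day 139, from few genes. The 4 detected vessel-wall genes had a median log2 ratio of -0.20 for day 139 over day 0, with 3 of them below 0, and the 4 integrin chains one of 0.42, with 3 above 0. The median over all genes was 0.00. For day 2 over day 0 the medians were -0.09 and 0.08, beside 0.02 over all genes, and for day 139 over day 2 they were 0.01 and 0.25, beside -0.03.

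The zero of this scale depends on the scaling. When arrays were scaled to 7 spike-in controls, whose signal on day 139 was 65.9% of that on day 0, the median of all detected probes moved to 0.35 for day 139 over day 0. On that scale the log2 ratios of Icam1, Vcam1 and Itgb2 turned from -0.36, -0.04 and -0.13 to 0.02, 0.39 and 0.28. That of Selp was -1.50, and on that scale Selp was the one member below 0.

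**Figure D3:**
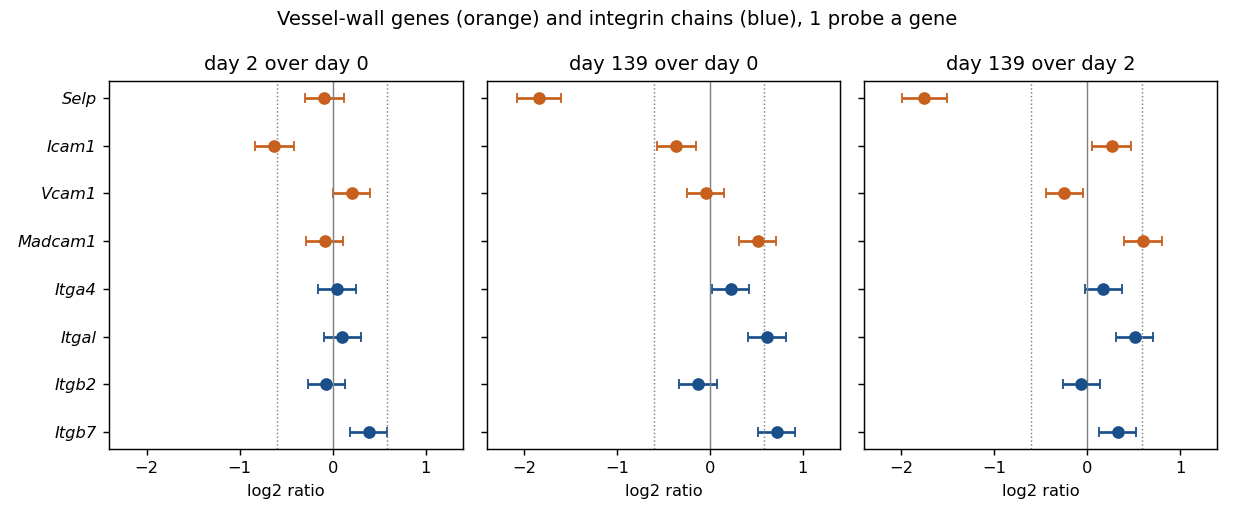
Log2 ratio of normalized signals for the brightest probe of each detected gene in the 3 comparisons, with the scanner error carried to the ratio as bars; orange points are vessel-wall genes, blue points integrin chains, and dotted lines mark ratios of 1.5 and 0.66. Selp lies far below the lower line in both day 139 comparisons, at -1.84 and -1.75, while all other members lie between -0.63 and 0.72.

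Partner chains did not move by the same amount. The Itgal and Itgb2 log2 ratios of day 139 over day 0 were 0.62 and -0.13, a gap of 0.74, and those of Itga4 and Itgb7 were 0.22 and 0.72, a gap of 0.50. The gaps were smaller from day 0 to day 2, at 0.17 and 0.34. Itgb1, the second partner of Itga4, read 1733, 1682 and 1161, and its day 139 signal was 0.670 of that on day 0.

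As a description of shape, each gene's log2 values were centred over the 3 arrays and compared by root mean square distance. The closest members were Madcam1 and Itgal, 0.08 apart, followed by Vcam1 and Itgb2 at 0.11 and Itgal and Itgb7 at 0.12. Selp was far from all, from 0.79 (Vcam1) to 1.11 (Madcam1, Itgal and Itgb7). Judged by the brightest probe of each gene, only Selp spanned more than 1 on the log2 scale. The dimmer Madcam1 probe spanned 1.22 and the Itgal probe beside the brightest one 1.04. Over the 19796 genes well above background on all arrays, 77 lay within 0.25 of Selp. With 3 points many genes share a shape by number alone. The nearest were the unnamed probes A_55_P2096121 (0.016) and A_55_P1962004 (0.033) and the predicted gene Gm4098 (0.034), which read 81.7, 77.5 and 24.1.

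Selectin partners were looked at next, in a list of 19 genes that holds selectin ligands and the enzymes that build their sugars. Of the 18 detected, 3 were past the ratio limit upward and 4 downward in day 139 over day 0, against 13.6% and 13.7% of all genes. None passed with the Z-score, and the median log2 ratio was -0.08. The shares of all genes given above with the member counts also stand beside the counts of every list below. A gene counts as detected from 1 array, so some list ratios rest on a background signal. Selplg, the main ligand of the Selp product, read 6473 on day 0, 4706 on day 2 and 4950 on day 139, past no limit.

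The enzymes gave the extremes on day 139. Fut7, a fucosyltransferase of selectin ligands, read 209, 211 and 417, and day 139 was 1.99 times day 0. St3gal4, a sialyltransferase of the same route, read 429, 321 and 220, a ratio of 0.513. Fut4 read 221, 156 and 330, and its ratio of day 139 over day 2 was 2.12 with a Z-score of 1.96. Fut7 and Fut4 were thus highest, and St3gal4 lowest, on day 139. In this comparison with day 2, 6 of 18 genes passed the ratio limit upward and 0 downward, against 12.9% and 13.5% of all genes. Chst4 is among the 6, and its day 2 signal of 10.5 was not well above background. From day 0 to day 2, 1 passed upward and 2 downward, and Glg1 was highest among those well above background on both arrays at 1.31 times. Chst4 was well above background on day 139 alone and Podxl on day 0 alone, and Glycam1 was not detected.

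Among 14 other endothelial adhesion and junction genes, all detected, none passed with the Z-score in any comparison. On day 139 over day 0, 1 gene was past the ratio limit upward (Alcam, 1.62) and 1 downward (Icam4, 0.624), and the median log2 ratio was -0.04. Alcam, an immunoglobulin-family adhesion molecule of activated leukocytes and endothelium, read 220, 180 and 356, or 1.98 times day 2 on day 139. Icam2, a further ligand of the Itgal and Itgb2 pair that resting endothelium carries, read 4483, 5516 and 6211, past no limit. From day 0 to day 2, Icam5 was highest at 1.64 times and Esam, a junction protein, lowest at 0.648.

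Of 22 other integrin subunits, 20 were detected, and 3 of them passed with the Z-score in some comparison. Itga5, the alpha chain of the fibronectin receptor, read 211 on day 0, 195 on day 2 and 44.0 on day 139. Day 139 was low and days 0 and 2 alike, as for Selp: the ratios were 0.209 to day 0 (Z-score -3.35) and 0.226 to day 2 (Z-score -3.33). Itga8 read 207, 564 and 409 and Itga11, a collagen receptor chain, 143, 439 and 237. Both were highest on day 2, at 2.72 and 3.06 times day 0, with Z-scores of 2.63 and 3.38.

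In this list 6 of 20 passed the ratio limit downward and 3 upward for day 139 over day 0. Over all genes the shares were 13.7% and 13.6%. Itga2 and Itgae are among the 6, and their day 139 signals of 12.6 and 16.1 were not well above background. Itga2b, also among the 6, is counted in the platelet marker list below as well. The median log2 ratio of the list was -0.24. Itgb4 was highest, at 2.33 times. For day 139 over day 2, 4 passed downward, Itga2 among them, and 0 upward, against 13.5% and 12.9% of all genes. The other alpha chains that pair with Itgb2 passed no limit: Itgam read 3040, 3035 and 3109, Itgax 4382, 4325 and 5546, and Itgad 3277, 2499 and 2683.

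A list of 17 genes of integrin activation and signalling, all detected, had a median log2 ratio of 0.12 for day 139 over day 0, with 2 past the ratio limit in each direction. Tln2 is among those upward, and its signals of 12.2 on day 0 and 20.3 on day 139 were not well above background. Adam8, a leukocyte surface protease, read 4583, 2089 and 1037. It was lowest on day 139, at 0.226 of day 0 (Z-score -3.69), and already 0.456 of day 0 on day 2 (Z-score -2.88). Rap1b, a small GTPase that switches integrins on, read 10454, 3830 and 11367, low on day 2 alone, with Z-scores of -3.00 against day 0 and 2.78 for day 139 over day 2. Skap1, an adaptor in T cell integrin activation, read 1307, 1732 and 2351, or 1.80 times day 0 on day 139. Tln1 and Fermt3, which bind integrin tails, passed no limit, with ratios between 0.737 and 1.15.

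Inflammatory cytokines and NF-kB signalling are known to induce several of the vessel-wall ligands. A list of 20 genes held such cytokines, their receptors and NF-kB subunits, inhibitors and targets, and 19 were detected. From day 0 to day 2, 5 were past the ratio limit downward and 0 upward, against 9.90% and 9.96% of all genes. Il1a is among the 5, and its day 2 signal of 7.58 was not well above background. Il1b, an inflammatory cytokine, read 3926, 721 and 1378, and was lower than day 0 on day 2 (ratio 0.184, Z-score -5.94) and on day 139 (ratio 0.351, Z-score -2.74). Ltbr, the lymphotoxin beta receptor, read 2275, 1205 and 1220 and passed both limits on day 2 (ratio 0.530, Z-score -2.26).

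On day 139 over day 2, 7 of the 19 were past the ratio limit upward and 1 downward, none with the Z-score. Over all genes, 12.9% were past the ratio limit upward and 13.5% downward. Tnf read 166, 82.1 and 191, lowest on day 2 like Icam1, and its ratio of day 139 over day 2 was 2.33. Ltb, a lymphotoxin chain, read 17889, 20744 and 34084, and Nfkbie, an NF-kB inhibitor, 979, 1109 and 1881. Both were highest on day 139, at 1.91 and 1.92 times day 0. The lowest in that comparison with day 2 was Il1r1, at 0.584.

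**Figure D4:**
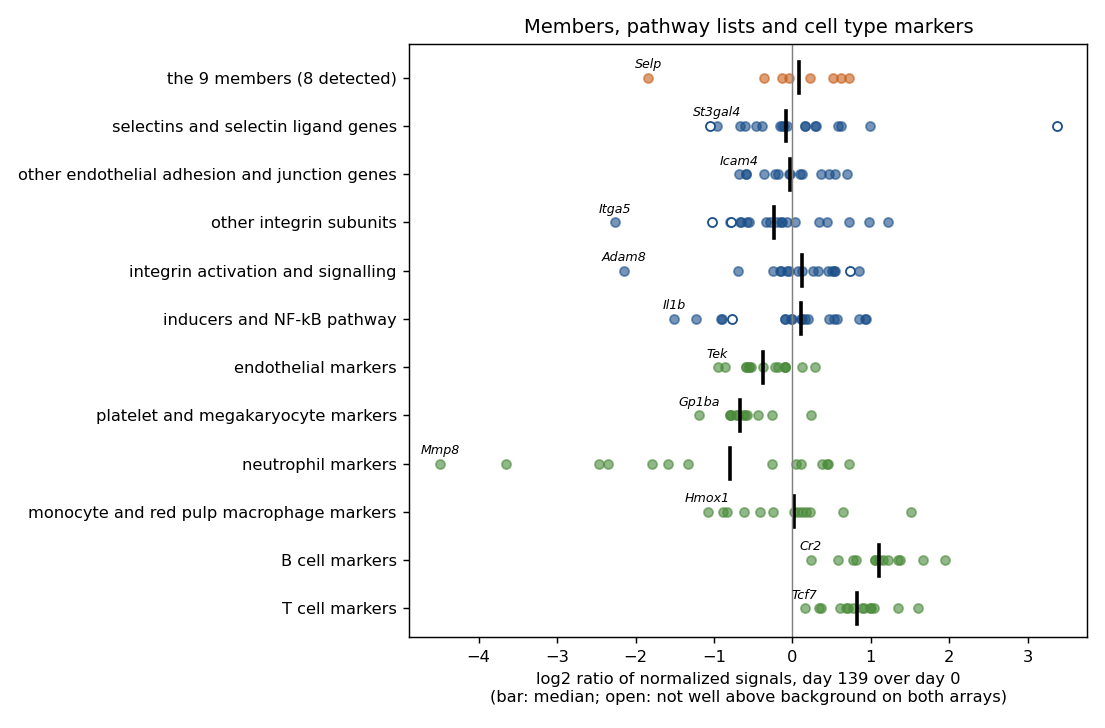
Log2 ratio of day 139 over day 0 for each detected gene (points) of the members, the pathway lists and 6 of the marker lists, with the median of each list as a bar; open points are not well above background on both arrays, and the name is that of the lowest filled point. Selp, at -1.84, lies below every endothelial and platelet marker and above Itga5, Adam8 and 4 of the 14 neutrophil markers. The B cell and T cell markers all lie above 0.

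Marker genes of cell types that a whole spleen can hold are given as measured values. Some lists differed between samples in the same direction as a member and others did not. All 15 endothelial markers were detected. Their summed signal was 53950 on day 0, 52250 on day 2 and 43870 on day 139, and 13 of 15 were lower on day 139 than on day 0, with a median log2 ratio of -0.38. The lowest was Tek at 0.516. All 12 platelet and megakaryocyte markers were detected, with sums of 32370, 35400 and 21350, and 11 of 12 were lower on day 139, with a median of -0.66. Gp1ba was lowest at 0.440 and Clec1b highest at 1.18. Selp's ratio of 0.280 was below that of each of these 27 markers with the main processing. With normexp it was 0.474, and the marker ratios were not computed with that correction. In the other lists, 4 of 14 neutrophil markers, Itga5 and Adam8 had lower ratios than Selp. The part of endothelial and platelet content in the Selp result was not tested.

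The lymphocyte markers were higher on day 139, as Itgb7, Itgal and Ltb were. The 13 B cell markers had summed signals of 68390, 70130 and 133100, all 13 were higher on day 139 than on day 0, and the median log2 ratio was 1.11, from Cr2 at 1.17 times to Blk at 3.85 times. The 14 T cell markers summed to 21690, 28300 and 40940, all 14 were higher, and the median was 0.83, from Tcf7 at 1.12 times to Cd247 at 3.03 times. The integrin median of 0.42 was below both. The part of lymphocyte content in these values was not tested.

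The 14 neutrophil markers, all detected, went both ways. Their sums were 279600, 121600 and 126900, of which S100a9 alone read 147010, 51357 and 58589. Against day 0, 9 were lower and 5 higher on day 2, and 8 were lower and 6 higher on day 139. In each of the 2 comparisons 7 passed both limits downward, against 2.91% and 2.47% of all genes, and none passed both upward. Mmp8 was lowest, at 0.0461 and 0.0446 of day 0. Camp, a granule peptide of neutrophil precursors, was highest, at 1.42 and 1.64 times day 0. Monocyte and red pulp macrophage markers, of which 13 of 15 were detected, summed to 130800, 106200 and 114300, with median log2 ratios of -0.02 and 0.02 against day 0, and also went both ways. In this list Spic, the transcription factor of red pulp macrophages, had the lowest ratio of day 2 over day 0, at 0.305 (Z-score -3.63). Hmox1 had the lowest ratio of day 139 over day 0, at 0.473 (Z-score -2.03). Hmox1 read 35150, 11015 and 16617, so its own lowest signal was on day 2, at 0.313 of day 0 (Z-score -3.68). Cx3cr1, a chemokine receptor of monocytes, had the highest ratio on both days, at 2.38 and 2.86 times day 0 (Z-scores 3.15 and 2.66). The part of these cells in the Icam1, Vcam1, Il1b and Adam8 values was not tested.

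Stromal markers (11 of 12 detected) summed to 11980, 29370 and 21160, with median log2 ratios of 0.38 on day 2 and 0.73 on day 139 against day 0. The collagen genes Col1a1 (1179, 11182 and 1361) and Col3a1 (785, 9030 and 1334) were highest on day 2, as Itga8 and Itga11 were. Lum (17.3, 37.5 and 180) and Dcn (1585, 2067 and 9670) were highest on day 139, and Pdgfra (1189, 649 and 422) on day 0. Mesothelial markers (7 of 7 detected) summed to 1634, 2178 and 4899, with 6 of 7 past both limits upward in each comparison and Wt1 the exception. Of these, Upk3b, Lrrn4, Upk1b and Gpm6a were not well above background on day 0 (4.84, 6.43, 3.77 and 9.85). Their ratios to day 0 therefore rest on background signals. Erythroid markers (12 of 12) summed to 159400, 175900 and 118500, and all 12 were lower on day 139 than on day 0. The part of these cells was not tested. All 9 spleen markers, of which Madcam1 is one, were detected.

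Promoter sequence bears on the induced ligands, because NF-kB binds the promoters of several of them. A RefSeq table (GRCm38.p6) held 6 of the members, and Vcam1, Itgal and Itgb2 were not in it. The 250 bases before the gene start were searched on both strands for the NF-kB consensus and for the GATA motif AGATAA. The NF-kB consensus was taken as GGGRNNYYCC, where R is A or G, Y is C or T and N is any base. A site that departs from this form is not counted. Of the 6, the NF-kB consensus was found in Madcam1 alone, 2 times, both on the minus strand, at 83 and 70 bases before the start; 7.25% of 32851 promoters held it. The GATA motif was found in none of the 6, and 9.99% of promoters held it. No match says only that these letters are not in this window. The promoters of Madcam1, with the matches in capitals, and of Selp, the member with the widest change, are shown, each read on the plus strand.
Madcam1, chr10:79664309-79664558: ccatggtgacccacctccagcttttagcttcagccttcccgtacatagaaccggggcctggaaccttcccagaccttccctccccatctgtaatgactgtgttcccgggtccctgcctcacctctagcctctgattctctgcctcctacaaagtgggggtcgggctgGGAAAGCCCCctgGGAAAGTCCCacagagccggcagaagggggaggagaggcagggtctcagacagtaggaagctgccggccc
Selp, chr1:164115014-164115263: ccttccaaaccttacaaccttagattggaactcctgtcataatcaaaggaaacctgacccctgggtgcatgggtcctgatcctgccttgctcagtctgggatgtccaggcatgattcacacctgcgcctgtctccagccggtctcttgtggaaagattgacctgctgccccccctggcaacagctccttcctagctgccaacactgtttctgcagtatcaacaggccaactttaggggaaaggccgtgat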

How the data were processed

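Spleen RNA of 3 samples was labelled with Cy3 and hybridized to one-color arrays of 62976 spots on 1 slide. The authors deposited the scanner output, whose intensity values are linear, background-subtracted and not normalized between arrays (Feature Extraction 10.7.1.1 per the file headers, 9.5.1.1 per the labels). They also deposited a table of processed intensity per probe, which on the log2 scale differed from the values used here by at most 0.015 over the detected member probes.

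Control and outlier-flagged spots were left out, the spots of a probe were averaged, and quantile normalization was run on 55679 probes, with a floor of 1 before log2. A probe was detected if at least 1 array had it well above background (32108 probes, 22851 genes); between 50.4% and 54.4% of probes were so on a single array. Over 304 probes with 10 spots, the median coefficient of variation within an array lay between 4.12% and 5.87%. The number of arrays limits the precision. The Z-score formula is not stated in the paper's text and was set as in the report.

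The members and lists were chosen with earlier results of these data known, and the lists come from general knowledge. The genes named are all members, and the highest and lowest gene of a list in a comparison among genes above background on both arrays. The 3 genes nearest to a member whose brightest probe spans more than 1 on the log2 scale are named too. Further list genes, given for their role, for passing both limits or for a background signal, were chosen after their values were seen. One gene of the selectin list is counted with the list and is not reported singly here.

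Alternatives were the deposited values, scaling to the 75th percentile or to 7 spike-in controls, normexp with an offset of 50 (limma 3.58.1, R 4.3.3), detection on all arrays or no filter, a higher floor (the dimmest detected signal of an array), outlier spots kept, other Z-score spreads (1 SD over all probes, a median absolute deviation, a window of 250 probes), the median over a gene's probes, and a ratio limit of 2 or 0.5. Python 3.11.15, numpy 2.4.6, pandas 2.3.3 and matplotlib 3.10.9 were used.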

Additional observations from a re-analysis of the deposited data

How the results depend on the processing

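No paired analysis was possible because each condition has 1 array. Of 210 counts and medians under 13 alternatives, 196 kept their value within the limits set and 14 moved; none reversed a call. Alternatives that alter only the Z-score spread could not change the counts by ratio, which are among the 196. With spike-in scaling, 4 members were past the ratio limit upward in day 139 over day 0 (Madcam1, Itga4, Itgal and Itgb7) and 4 in day 139 over day 2 (Icam1, Madcam1, Itgal and Itgb7). The median log2 ratios were then 0.21 (turned from -0.20) and 0.46 for the vessel-wall genes and 0.80 and 0.64 for the integrins, in the same order; the median of all detected probes itself moved by construction, to 0.35 and 0.40. With 75th percentile scaling, normexp or a ratio limit of 2 or 0.5, 0 members were higher in day 139 over day 2. With normexp or the stricter limit, 0 were lower in day 2 over day 0, and with the stricter limit 0 were higher in day 139 over day 0. With the median absolute deviation as spread, 1 member, Itgb7, was higher in day 139 over day 0 by ratio and Z-score. With the median over a gene's probes, 3 members (Madcam1, Itgal and Itgb7) were past the ratio limit upward in day 139 over day 0, in place of 2. The limits set counted this change as kept. The vessel-wall median of day 139 over day 0 was then -0.40, since the dimmer Vcam1 probe then counts. Of 216 log2 ratios of single members, 22 moved by more than the scanner error.

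The limits are those of 1 array a condition: mouse, labelling and condition cannot be told apart. The size of the Selp ratio depends on the background correction: day 139 over day 0 was 0.474 with normexp and 0.280 without it.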
